A study of Mus musculus with 4 samples.

Results

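The genes described here make and control the MCM helicase, the enzyme that is loaded on replication origins before DNA is copied. They are Mcm2, Mcm3, Mcm4, Mcm5, Mcm6, Mcm7, Mcm10, Cdc6, Cdt1 and Gmnn. They were taken by gene symbol from the deposited expression table, which held all 10 of them among 16142 genes. Splenic CD4+ T cells were compared between WT B6 mice (2 libraries) and Cd4CreERT2 LSL-R111A fl/fl mice (2 libraries) by bulk RNA-seq. R111A is a form of the ribonuclease Regnase-1, encoded by Zc3h12a, that the protease MALT1 cannot cleave. Its transgene sat in the Rosa26 locus behind a floxed STOP cassette and the CAG promoter, with EGFP as a reporter, and a tamoxifen-activated Cre under the Cd4 promoter removed the STOP. Tamoxifen was injected into mice of both groups at 75 mg/kg for 5 days, and the sorted cells of both groups received anti-CD3 (5 µg/mL) together with anti-CD28 (1 µg/mL) over 12 h. The WT cells carried neither Cre nor the cassette, so Cre and the transgene cannot be told apart in this comparison. Mice of both sexes, aged 6 to 12 weeks, were in general use, and the age and sex behind each library were not given. Sorts from GFP reporter mice in general began with a gate on GFP+ cells, followed by CD25. The labels of these libraries name sorted CD4+ cells without such a gate, and the effect of a GFP gate in the R111A group alone was not tested. Unstimulated cells were not analysed here.

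Before S phase, the origin recognition complex, Cdc6 and Cdt1 load the ring formed by Mcm2 to Mcm7 onto DNA, a step called licensing, and geminin (Gmnn) binds Cdt1 and prevents loading again in the same cycle. The loaded ring is later activated by Cdc45, the GINS complex and Mcm10, and then unwinds DNA at the fork. Resting T cells hold little of this machinery and produce it after stimulation through the T cell receptor, in part through E2F transcription factors.

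The members lie on 8 chromosomes, with Mcm3 and Mcm6 both on chromosome 1 and Mcm5 and Cdt1 both on chromosome 8. Mcm4 spans chr16:15623897-15637400, Mcm10 spans chr2:4990724-5012791 and Gmnn spans chr13:24751845-24761937, each on the minus strand (GRCm38.p6). The start regions of those with an entry in RefSeq (GRCm38.p6) are shown because the members moved together. Promoter windows of 300 bases, 250 before and 50 after an annotated start, were found for 8 of the 10 members, with 9 windows because Mcm7 has 2 starts. Mcm4 and Gmnn had no entry. The windows were searched on both strands for E2F-type letters of 8 bases (TTTCGCGC or TTTGGCGC) and for the 7-base core (TTCGCGC inside the first, TTGGCGC inside the second, and the variants TTCCCGC or alternatively TTGCCGC), which can lie inside the longer form. The first 2 sequences show the whole windows of Mcm5 and Mcm6, the helicase subunits with the largest and the smallest fall, and Mcm2 is given as a window without a match. Capitals mark E2F-type matches, which run together where they overlap.
Mcm5, chr8:75109259-75109558, plus strand: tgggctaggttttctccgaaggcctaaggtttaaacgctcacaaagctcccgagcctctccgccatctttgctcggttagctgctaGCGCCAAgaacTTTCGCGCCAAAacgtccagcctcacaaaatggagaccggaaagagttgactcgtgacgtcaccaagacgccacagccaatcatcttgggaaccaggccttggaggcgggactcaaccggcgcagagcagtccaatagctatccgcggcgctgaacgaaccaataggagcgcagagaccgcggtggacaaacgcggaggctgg
Mcm6, chr1:128359656-128359955, minus strand: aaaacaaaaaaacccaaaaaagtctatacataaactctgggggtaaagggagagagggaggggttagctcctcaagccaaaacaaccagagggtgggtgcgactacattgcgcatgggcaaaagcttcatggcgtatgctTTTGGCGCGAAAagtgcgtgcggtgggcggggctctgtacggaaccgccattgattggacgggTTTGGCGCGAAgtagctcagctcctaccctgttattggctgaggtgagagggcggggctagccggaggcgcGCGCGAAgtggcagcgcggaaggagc
Mcm2, chr6:88898731-88899030, minus strand: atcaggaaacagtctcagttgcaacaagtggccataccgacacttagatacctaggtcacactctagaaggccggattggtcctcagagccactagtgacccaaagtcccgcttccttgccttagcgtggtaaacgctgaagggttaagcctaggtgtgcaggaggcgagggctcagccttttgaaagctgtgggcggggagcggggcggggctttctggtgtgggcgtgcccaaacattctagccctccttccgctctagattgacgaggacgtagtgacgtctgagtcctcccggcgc
The other members with a match are given by a short stretch around it, with 1 match in capitals.
Mcm3, chr1:20820263-20820285, minus strand: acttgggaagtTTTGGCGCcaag
Mcm7, chr5:138171849-138171878, minus strand: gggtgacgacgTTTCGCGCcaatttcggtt
Cdt1, chr8:122568036-122568064, plus strand: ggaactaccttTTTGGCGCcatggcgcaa
Cdc6, chr11:98908002-98908030, plus strand: gccggtggagaGCGGGAAatcgcctgggg

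The 8-base form was present in 5 members, namely Mcm3, Mcm5, Mcm6, Mcm7 and Cdt1. Over all RefSeq windows it was present in 0.813% (267 of 32851), and over the windows of the genes tested in 1.74%. The Mcm6 window held 3 matches of this form, the Mcm5 window held 2 that overlap, and Mcm3, Cdt1 and the second Mcm7 start held 1 each. In Mcm3, Mcm7 and Cdt1 the match lay after the start, at bases 39 to 46, 17 to 24 and 33 to 40, whereas in Mcm5 the matches lay before it, at bases -153 to -142, as did those of Mcm6, at bases -110 to -99 and -47 to -40. The Cdc6 window and the first Mcm7 window held the core alone, which 9.57% of all windows and 17.3% of those of tested genes also held. Both windows lie wholly inside the gene. Cdc6, on the plus strand, begins at base 98907709, and its window covers bases 98907901 to 98908200. Mcm7, on the minus strand, begins at base 138172111, and its first window covers bases 138171217 to 138171516. Its second window covers bases 138171834 to 138172133, so it too lies mostly inside the gene, as does its 8-base match. The bases before the Cdc6 gene were not searched, and those before the Mcm7 gene only as far as base 138172133. Neither form was in the windows of Mcm2 and Mcm10. The Mcm10 window ends in the letters tttggcg, the 8-base form without its last letter. The next base was not read, so a match across that edge was not looked for. The letters CCAAT, known as a binding motif of NF-Y, were in Mcm2, Mcm3, Mcm5, Mcm6, Mcm7 and Mcm10 and in 37.4% of all windows. The CHR letters (TTTGAA or otherwise TTCGAA), known from genes of late cell cycle phases, were in Mcm2 and in the second Mcm7 window and in 19.2% of all windows. In the second Mcm7 window a CCAAT match at bases 24 to 28 overlaps the 8-base match at 17 to 24 and a core match at 21 to 27. A match is a description of the letters and does not show that a factor binds.

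**Figure D1:**
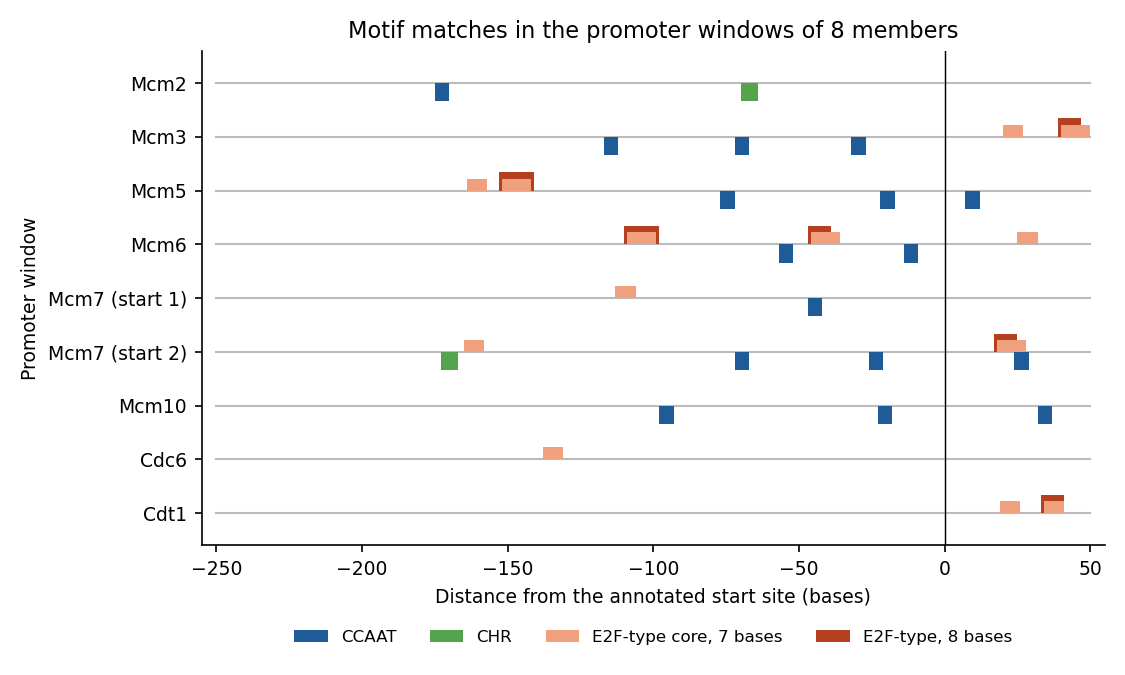
Positions of motif matches in the promoter windows of 8 members, as distance in bases from the annotated start site (vertical line). E2F-type matches are drawn above each line and CCAAT and CHR matches below it, and 5 members hold the 8-base E2F-type form.

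The annotated 3'UTR of each member was also read, since Regnase-1 is known to cut RNA at stem-loops with a pyrimidine-purine-pyrimidine loop. None of the 10 members had such a stem-loop of at least 5 perfect base pairs with a loop of 3 bases in its transcript with the longest coding sequence (GENCODE vM21). Among 9582 tested genes with an annotated 3'UTR, 21.7% had at least 1. The 3'UTRs of the members were 136 bases (Mcm7) to 1679 bases (Mcm10) long, and among tested genes of like length the share ran from 4.26% for Mcm7 to 26.1% for Mcm10. The search covered these perfect stems alone, whereas the study's own screen also took shorter stems and larger loops. Other stem-loops in the members were not looked for.

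The gene of the transgene was read first as a check of the labels. Zc3h12a was at 16.97 and 15.72 FPKM (fragments scaled by transcript length and library size) in the WT libraries and at 196.3 and 130.87 FPKM in the R111A libraries. Both R111A libraries were far above both WT libraries, the direction that the transgene would give. Reads of the endogenous gene and of the transgene are not separated in this value. The cells also had the markers of their label. Of 9 CD4+ T cell markers, 8 were in the table (Trac was not) and these were present in each library, with Cd3g the most abundant by the mean over the libraries, at 288.7 to 465.39 FPKM. In R111A replicate 1, Cd5 (296.42 FPKM) and Lck (295.35 FPKM) were slightly above it. Cd4 measured 157.54 and 131.28 FPKM in the WT libraries, against 70.69 and 51.35 FPKM in the R111A libraries. Cd4 was itself called lower (log2 fold change -1.24, adjusted p = 0.000568, limma). Cd8a was at most 0.2 FPKM in any library.

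All 10 members were lower in R111A than in WT cells. Each was called lower by limma on log2(FPKM + 1), at an adjusted p under 0.05 and a change of at least 2-fold, and in each both R111A libraries lay below both WT libraries. Of the 9831 genes tested, which had a mean of at least 1 FPKM, 8.34% (820) were called lower and 8.52% (838) higher, and in 46.3% both R111A libraries lay below both WT libraries. All 10 members passed this filter, Mcm10 and Cdc6 through their WT level, since both were under 1 FPKM in R111A cells. Mcm10 and Cdc6 thus had to be lower in R111A cells, though not by a set amount. The median log2 fold change was -2.12 over the members and -0.115 over all genes tested. The labels do not say whether the libraries of a group came from separate animals or cultures, so the p-values measure the spread between these samples, which may be technical. In bulk RNA, fewer cells that express the helicase and less of its RNA in each cell cannot be told apart.

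**Figure D2:**
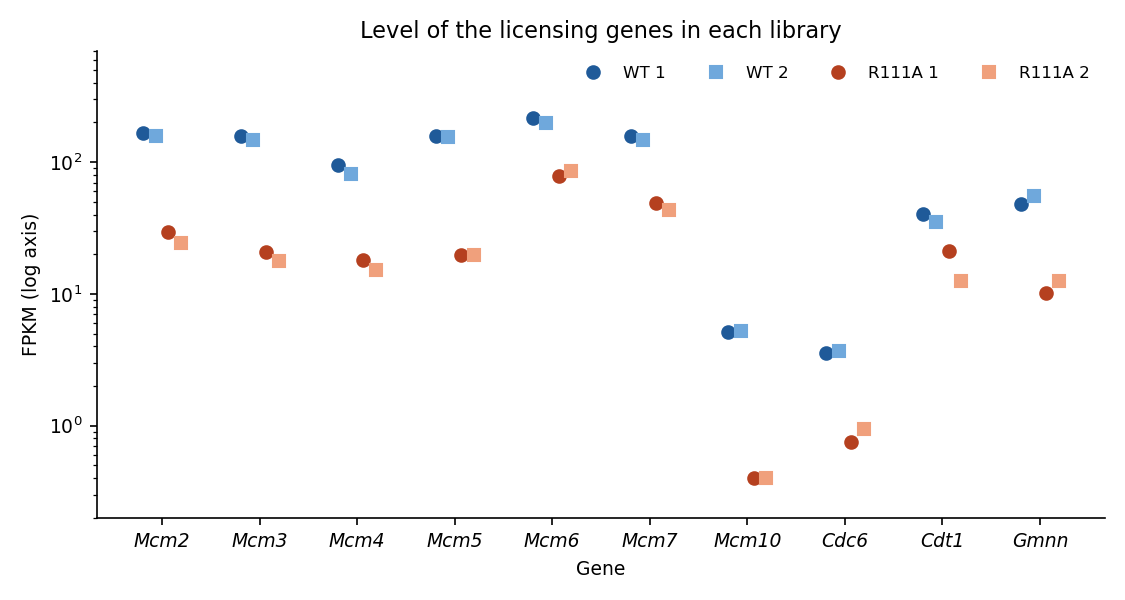
FPKM of each member in each library on a log axis, with WT libraries in blue, R111A libraries in red and the replicates by shape. Both R111A points lie below both WT points for all 10 genes, and the gap is widest for Mcm10 and narrowest for Cdt1.

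Among the ring subunits, Mcm2 measured 166.2 and 158.47 FPKM in the WT libraries, against 29.49 and 24.52 FPKM in the R111A libraries. Mcm3 measured 158.53 and 146.14 FPKM in the WT libraries, against 20.77 and 17.68 FPKM in the R111A libraries. Mcm5 measured 157.89 and 155.34 FPKM in the WT libraries, against 19.6 and 19.84 FPKM in the R111A libraries. These 3 subunits had nearly the same level in WT cells, and all their R111A libraries were low with no overlap. Mcm2 and Mcm5 sit beside each other in the ring and form the gate through which DNA enters, and Mcm3 joins Mcm5 on the other side. The log2 fold change was -2.93 (SE 0.124, adjusted p = 3.04e-06, limma) for Mcm5, -2.93 (SE 0.138, adjusted p = 3.82e-06) for Mcm3 and -2.55 (SE 0.139, adjusted p = 6.6e-06) for Mcm2. The mean R111A level was 12.6% of the WT mean for both Mcm5 and Mcm3, and Mcm5 and Mcm3 had ranks 10 and 11 among the 9831 genes ordered from the lowest fold change.

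Mcm4, Mcm6 and Mcm7 are known to form a subcomplex that unwinds DNA in vitro. Mcm4 measured 94.39 and 81.1 FPKM in the WT libraries, against 18.02 and 15.09 FPKM in the R111A libraries. Mcm6 measured 215.32 and 198 FPKM in the WT libraries, against 78.58 and 86.1 FPKM in the R111A libraries. Mcm7 measured 158.89 and 148.17 FPKM in the WT libraries, against 48.7 and 43.29 FPKM in the R111A libraries. The WT libraries were high and the R111A libraries low for each, but Mcm6 and Mcm7 kept a larger part of their WT level (39.8% and 30%) than Mcm4 (18.9%). The log2 fold change was -2.34 (SE 0.148, adjusted p = 1.16e-05, limma) for Mcm4, -1.72 (SE 0.131, adjusted p = 2.49e-05) for Mcm7 and -1.32 (SE 0.128, adjusted p = 7.63e-05) for Mcm6. Mcm4 shares its start region with Prkdc, a DNA repair kinase gene that starts 466 bases away on the other strand. Prkdc measured 4.75 and 3.87 FPKM in the WT libraries, against 2.72 and 3.04 FPKM in the R111A libraries, and its log2 fold change of -0.45 (adjusted p = 0.0337, limma) did not reach 2-fold.

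The ring holds its 6 subunits in equal number, so their levels were also read as shares of their summed FPKM, a value per length that can be compared between genes. The sum was 951.2 and 887.2 FPKM in WT and 215.2 and 206.5 FPKM in R111A cells. Mcm6 made up 22.6% and 22.3% of it in WT and 36.5% and 41.7% in R111A cells, and Mcm7 made up 16.7% in each WT library and 22.6% and 21% in R111A cells. The shares of Mcm3 (16.7% and 16.5% against 9.65% and 8.56%) and Mcm5 (16.6% and 17.5% against 9.11% and 9.61%) were lower in R111A cells. The shares of Mcm2 (17.5% and 17.9% against 13.7% and 11.9%) and Mcm4 (9.92% and 9.14% against 8.38% and 7.31%) were lower as well. The shares of a library are parts of 1 sum, so they do not move independently. Mcm6 was the highest and Mcm4 the lowest subunit in every library, and the ratio between them was 2.28 and 2.44 in WT and 4.36 and 5.71 in R111A cells.

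**Figure D3:**
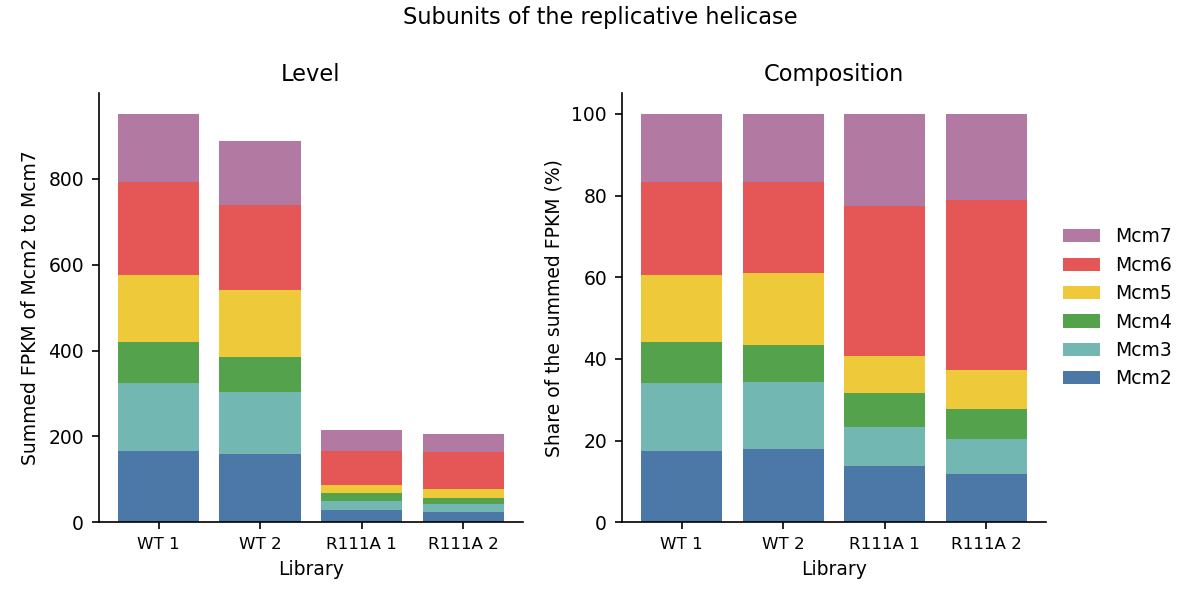
Summed FPKM of Mcm2 to Mcm7 in each library (left) and the share of each subunit in that sum in percent (right), with 1 bar for each library. The sum is 951.2 and 887.2 FPKM in WT and 215.2 and 206.5 FPKM in R111A cells, and the Mcm6 share is larger in both R111A libraries.

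Cdc6 and Cdt1 bring the ring to the origin. Cdc6 measured 3.58 and 3.71 FPKM in the WT libraries, against 0.75 and 0.95 FPKM in the R111A libraries. Cdt1 measured 40.09 and 35.13 FPKM in the WT libraries, against 21 and 12.45 FPKM in the R111A libraries. Both were lower in R111A cells without overlap, but the 2 R111A libraries lay further apart for Cdt1 than for any other member. The log2 fold change was -1.33 (SE 0.14, adjusted p = 0.000116, limma) for Cdc6 and -1.16 (SE 0.22, adjusted p = 0.00247) for Cdt1, the smallest change among the members. Without R111A replicate 2 the value for Cdt1 was -0.81 (adjusted p = 0.00307), which misses the 2-fold threshold, so its call rests on that library. Over 15 alternatives its log2 fold change ran from -1.52 to -0.81, with adjusted p-values from limma of at most 0.0321.

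Gmnn, the inhibitor of Cdt1, measured 48.42 and 55.21 FPKM in the WT libraries, against 10.18 and 12.56 FPKM in the R111A libraries. It was low in both R111A libraries, with a log2 fold change of -2.10 (SE 0.152, adjusted p = 2.02e-05, limma). The FPKM ratio of Cdt1 to Gmnn was 0.828 and 0.636 in WT and 2.06 and 0.991 in R111A cells. Gmnn was thus above Cdt1 in both WT libraries, and in R111A cells Cdt1 was above it in replicate 1 and level with it in replicate 2. The ratio of FPKM + 1 differed by 0.93 on the log2 scale (exact permutation test, two-sided, p = 0.33, the smallest p that 2 against 2 libraries allow). The difference was 0.44 without R111A replicate 1 and 1.43 without R111A replicate 2, so its size rests on those libraries.

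Mcm10, which helps to activate the loaded helicase, measured 5.14 and 5.22 FPKM in the WT libraries, against 0.4 FPKM in each R111A library. It was the member with the largest fall relative to its WT level, of which 7.72% was left. Its log2 fold change was -2.14 (SE 0.135, adjusted p = 1.14e-05, limma), a value that understates a gene this low because 1 was added to each FPKM before the log. With 0.1 added in place of 1 it was -3.40. With 5 added, the low members Mcm10 (-0.91) and Cdc6 (-0.56) and also Cdt1 (-1.0) missed the 2-fold threshold.

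In WT cells the members ranked from Mcm6 at a mean of 206.7 FPKM through Mcm2 (162.3), Mcm5 (156.6), Mcm7 (153.5), Mcm3 (152.3), Mcm4 (87.7), Gmnn (51.8), Cdt1 (37.6) and Mcm10 (5.18) to Cdc6 (3.65). The replicates of Mcm5, Mcm7 and Mcm3 overlapped, so these neighbours did not differ beyond their spread. In R111A cells the order by mean FPKM was Mcm6 (82.3), Mcm7 (46), Mcm2 (27), Mcm5 (19.7), Mcm3 (19.2), Cdt1 (16.7), Mcm4 (16.6), Gmnn (11.4), Cdc6 (0.85) and Mcm10 (0.4). Here Mcm5, Mcm3, Cdt1 and Mcm4 overlapped with their neighbours. Mcm7 was level with Mcm3 in WT cells, at an FPKM ratio of 1 and 1.01, and stood at 2.34 and 2.45 times its level in R111A cells. Mcm6 stood at 1.36 and 1.27 times Mcm5 in WT and at 4.01 and 4.34 times it in R111A cells. The ratio of Mcm10 to Cdc45 was 0.37 and 0.383 in WT and 0.163 and 0.0955 in R111A cells, the only ratio of the 5 computed that was lower there. With FPKM + 1 its log2 value was -1.277 and -1.234 in WT, against -1.301 and -1.89 in R111A cells, a difference of -0.34. All 5 ratios but that of Cdt1 to Gmnn were chosen after their values were seen. The exact permutation p is 0.33 for each, also after Benjamini-Hochberg adjustment over the 5.

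**Figure D4:**
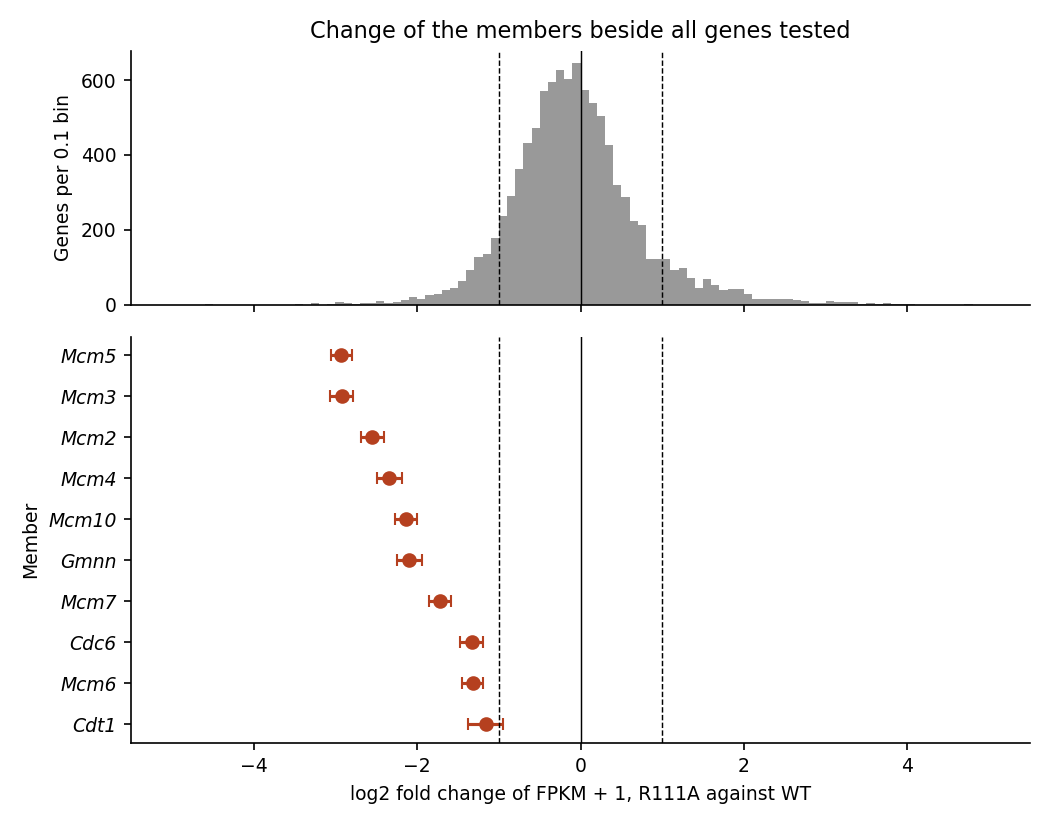
The log2 fold change of FPKM + 1 in R111A against WT cells, as a histogram of all 9831 genes tested (top) and for each member with its SE from limma (bottom). Dashed lines mark a 2-fold change, and the members lie from -2.93 (Mcm5) to -1.16 (Cdt1).

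The other genes of licensing, firing and helicase removal were read from lists with 41 genes, of which 39 were in the table (Gmnc and Mcidas were not) and 37 were tested. Of these, 11 were called lower and 0 higher, a share of 29.7% lower against 8.34% over all genes tested, and the median log2 fold change was -0.73. By the adjusted p alone, 24 were lower and 1 higher, where 32.1% of all genes tested were lower and 21.2% higher. The members stood lower as a list than the rest of their pathway by median. This difference was not tested, and the members and lists were chosen with earlier results of these data known.

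Of the origin recognition complex, which marks the origin and receives Cdc6, Orc1 and Orc6 were called lower among 7 genes, a share of 28.6% against 8.34% over all genes tested. Orc1 measured 10.46 and 9.36 FPKM in the WT libraries, against 0.43 and 0.52 FPKM in the R111A libraries, a log2 fold change of -2.89 (adjusted p = 4.48e-06, limma), and Orc6 had -1.11. Orc1, like Mcm10 and Cdc6, was under 1 FPKM in R111A cells and passed the filter through its WT level, so it had to be lower. Orc2 (-0.79), Orc4 (-0.50), Lrwd1 (-0.47) and Orc3 (-0.30) did not reach 2-fold. After rescaling to TPM, Orc2 (-1.11) was called lower as well, which made 3 of 7, where 17.8% of all genes tested were. Orc5 measured 22.68 and 26.3 FPKM in the WT libraries, against 29.8 and 38.1 FPKM in the R111A libraries, a log2 fold change of 0.45 (adjusted p = 0.0429, limma) that was 0.13 after rescaling to TPM. Cdc6 stood at 0.342 and 0.396 times Orc1 in WT and at 1.74 and 1.83 times it in R111A cells, where both were under 1 FPKM. With FPKM + 1 this ratio differed by 1.56 on the log2 scale, less than the plain FPKM ratios give. Among relatives and partners of the ring, Mcm8 (-1.17) and Mcmbp (-1.07) were called lower, on either scale, and Mcm9 and Kat7 (both -0.13) were not. That is 50% of 4 tested genes, against 8.34% of all genes tested, or 17.8% after rescaling to TPM.

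Of 12 tested genes that fire the licensed origin, 5 were called lower, a share of 41.7% against 8.34% over all genes tested. Gins2 measured 42.62 and 48.16 FPKM in the WT libraries, against 5.3 and 5.22 FPKM in the R111A libraries, a log2 fold change of -2.89 (adjusted p = 3.88e-06, limma). The others were Gins1 (-2.28), Topbp1 (-1.87), Cdc45 and Wdhd1. Not called were Recql4, Dbf4, Donson, Gins3, Cdc7, Mtbp and Gins4, with log2 fold changes from -0.89 (Recql4) to -0.15 (Gins4). In plain FPKM Recql4 was at 42.2% of its WT mean, because the added 1 shrinks changes at low levels. After rescaling to TPM, Recql4 (-1.16) and Dbf4 (-1.05) were called lower too, which made 7 of 12 against 17.8% of all genes tested. The GINS complex thus held genes at both ends, since Gins4 measured 45.02 and 45.36 FPKM in the WT libraries, against 39.58 and 41.67 FPKM in the R111A libraries. Ticrr was under the filter, with 1.45 and 1.36 FPKM in the WT libraries, against 0.09 and 0.18 FPKM in the R111A libraries. Dbf4 and Cdc7, which form the kinase that phosphorylates the loaded ring, had log2 fold changes of -0.73 and -0.43.

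Dtl directs Cdt1 to degradation in S phase. It measured 13.88 and 12.88 FPKM in the WT libraries, against 0.57 and 0.9 FPKM in the R111A libraries, and its log2 fold change was -3.06 (adjusted p = 4.69e-06, limma). It also passed the filter through its WT level, so it had to be lower in R111A cells. Of that level 5.49% was left, against 4.79% for Orc1. Dtl was the 1 gene called among 9 of turnover and relicensing control, a share of 11.1% against 8.34% over all genes tested. After rescaling to TPM, Ddb1, Skp2 and Rif1 were called lower as well, where 17.8% of all genes tested were. Its ligase partners Ddb1 (-0.98), Cul4b (-0.30) and Cul4a (-0.10) were not called on the FPKM scale, nor were Rif1, Skp2, Kmt5a, Fzr1 and Fbxo5, with log2 fold changes from -0.85 (Rif1) to 0.26 (Fbxo5). The value of Fbxo5 was -0.02 after rescaling to TPM. Skp2 was at 45.3% of its WT mean in plain FPKM, without the added 1. Of the genes that take the helicase off DNA, Cul2 was called lower (-1.18), Traip (-0.98), Vcp (-0.83), Faf1 (-0.02) and Ubxn7 (0.34) were not, and Lrr1 was under the filter. That is 20% of 5 tested genes, against 8.34% of all. Traip was at 37.3% of its WT mean in plain FPKM. After rescaling to TPM, Traip (-1.23) and Vcp (-1.17) were called lower too, which made 3 of 5 against 17.8%, and Ubxn7 stood at 0.05.

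Beside these, 16 of 22 tested genes of the replication fork were called lower and 0 higher, with a median of -1.29, a share of 72.7% lower against 8.34% lower and 8.52% higher over all genes tested. The lowest were Lig1 (-2.38), Pold1 (-2.03) and Rfc4 (-1.83), and Pole, Fen1, Rfc5, Pole2, Pola1, Timeless, Pold2, Rfc3, Rfc1, Prim1, Rfc2, Tipin and Rpa3 were called from -1.83 to -1.01. Pcna, the sliding clamp, measured 612.53 and 648.22 FPKM in the WT libraries, against 532.09 and 592.99 FPKM in the R111A libraries (log2 fold change -0.17, adjusted p = 0.292, limma). After rescaling to TPM the value for Pcna was -0.50 (adjusted p = 0.00448, limma), past the adjusted p but short of 2-fold. On that scale 19 of the 22 fork genes were called lower, against 17.8% of all genes tested. Of 14 tested G2/M and mitotic genes, Top2a (-2.33), Cdk1 (-1.44), Bub1b (-1.37), Aurkb and Ccna2 were called lower, a share of 35.7% against 8.34% over all genes tested, and the median was -0.81. Of these 5, Cdk1, Aurkb and Ccna2 passed the filter through their WT level, so they had to be lower in R111A cells. After rescaling to TPM, Ccnb1 (-1.17), Mki67 (-1.09) and Birc5 (-1.02) were called lower too, which made 8 of 14 against 17.8% of all genes tested. Ccnb1 and Mki67 were under 1 FPKM in R111A cells and also passed the filter through their WT level, so they had to be lower. In plain FPKM they were at 31.7% and 28.1% of their WT means. Ccnb2 went the other way, but it passed the filter through its R111A level, so it had to be higher. It measured 0.95 and 0.96 FPKM in the WT libraries, against 2.69 and 3.11 FPKM in the R111A libraries. Its log2 fold change of 0.99 (adjusted p = 0.000537, limma) was just short of 2-fold with FPKM + 1. Plk1 had a log2 fold change of 0.30 (adjusted p = 0.153, limma). Ccnb2, Plk1 and Pcna fall outside the rule for named genes and were picked once their values were known. The G2/M and mitotic genes stood at low levels, summing to 56.9 and 57.8 FPKM in WT and to 25.2 and 26.9 FPKM in R111A cells for the 20 listed, against 1048 and 986.5 FPKM in WT and 247.5 and 232.9 FPKM in R111A cells for the 10 members.

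**Figure D5:**
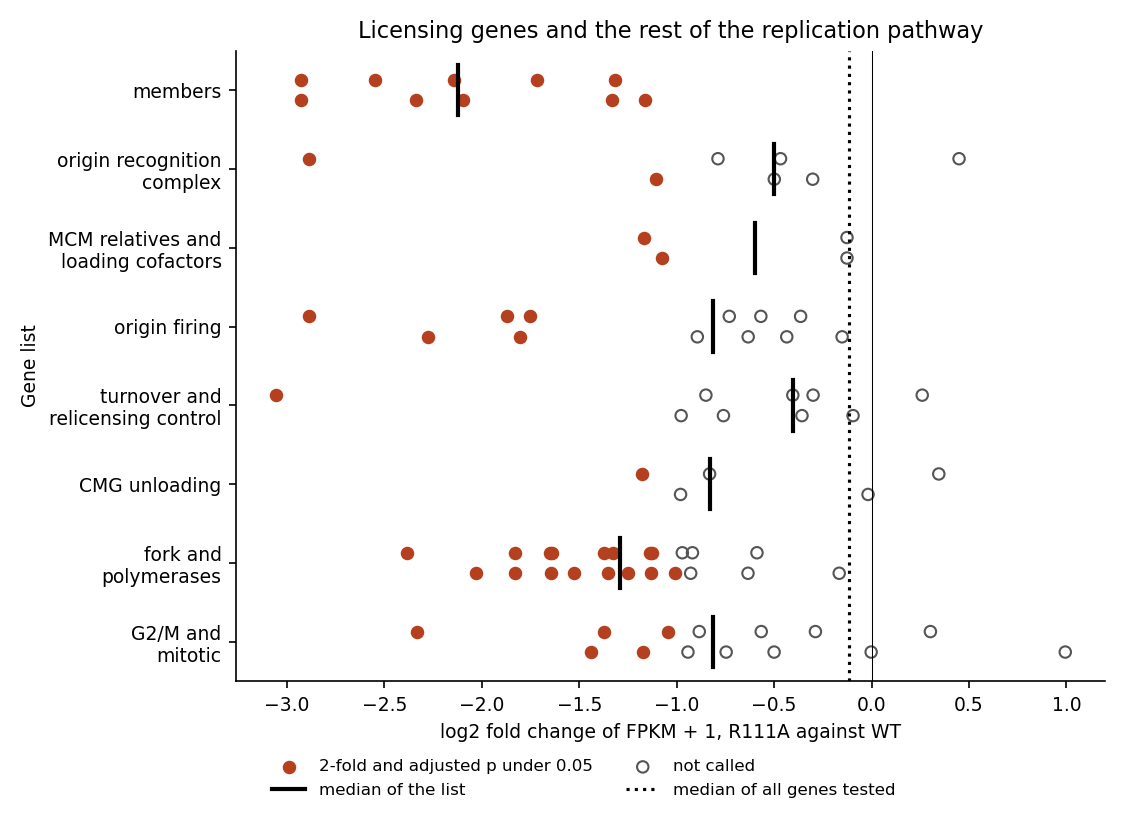
The log2 fold change of FPKM + 1 in R111A against WT cells for each tested gene, by list, with called genes filled, other genes open and the median of each list as a bar. The members have a median of -2.12 and the dotted line marks the median of all genes tested, -0.115.

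The 5 genes outside all lists with a profile over the 4 libraries nearest to the mean of Mcm2 to Mcm7 were Serpina3g, Plagl2, Cd52, Chaf1a and Mtfp1, at Euclidean distances of 0.121 to 0.2 in centred log2(FPKM + 1) among 7572 candidates. By the same measure the members themselves lay from 0.121 (Mcm4) to 1.21 (Cdt1) from that mean, and Mcm6 lay at 0.995. With 2 libraries in each group, this measure rests mainly on the size of the difference between the groups.

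Other measures moved with the groups as well. Markers of B, myeloid, NK and erythroid cells were low in all libraries, and each list summed to more in the R111A libraries. The 5 B cell markers summed to 2.13 and 0.95 FPKM in WT and to 5.13 and 4.49 FPKM in R111A cells, led by Cd79a, with Pax5 at 0.06 FPKM or less. The 6 myeloid markers summed to 0.73 and 0.17 FPKM in WT and to 6 and 5.02 FPKM in R111A cells, led by Lyz2, and the 4 NK cell markers to 0.36 and 0.3 FPKM and to 2.84 and 2.92 FPKM, led by Gzma. The 7 erythroid markers summed to 0.66 and 0.85 FPKM in WT and to 13.23 and 13.25 FPKM in R111A cells, nearly all of it Hba-a1, while Hbb-bs and Hba-a2 were at 0 in every library. Of these lists, Cd79a, Lyz2, Gzma and Hba-a1 were called higher, but each was under 1 FPKM in WT cells and passed the filter through its R111A level, so it had to differ. Apart from Cd79b, the other markers of these lists were not tested. The 2 CD8+ T cell markers summed to 7.31 and 6.76 FPKM in WT and to 3.88 and 4.46 FPKM in R111A cells, most of it Cd8b1. The 4 Treg markers summed to 195 and 193.6 FPKM in WT and to 141.4 and 146.9 FPKM in R111A cells, most of it Il2ra, and Foxp3 (11.31 and 8.78 FPKM against 2.86 and 1.86 FPKM) and Ctla4 were called lower. Their part in the lower level of the members was not tested.

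The libraries also differed in their summed FPKM, which was 801475 and 836143 in WT and 1053551 and 1012215 in R111A cells. The 10 most abundant genes took 9.9% and 10.4% of the sum in WT and 15.7% and 15.1% in R111A cells. After each library was rescaled to the same sum (TPM), the median of all genes tested moved from -0.115 to -0.418, and 1749 genes (17.8%) were called lower and 583 (5.93%) higher, against 820 and 838. All 10 members were called lower on this scale too, and their median was -2.41. Of the other licensing and firing genes, 19 were called lower on this scale, against 11.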

How the data were processed

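CD4+ T cells from spleen were analysed after stimulation, with 2 WT and 2 R111A libraries. The authors sequenced polyA RNA, filtered the reads for adaptors and low quality, mapped them by Bowtie2 (2.4.4) on mm10, quantified genes by RSEM (1.2.28) and deposited FPKM values for 16142 genes. FPKM is not a count, and the reads behind a value are unknown. Steps among low values gave the depth of R111A replicate 2 as 0.843 to 1.09 times that of WT replicate 1, depending on the window, so relative depth was not settled. No column was left out (0 columns).

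Groups came from the sample labels. The deposited FPKM values were put on the log2(FPKM + 1) scale, and the 9831 genes whose mean reached 1 FPKM entered limma (3.58.1 in R 4.3.3), with lmFit, eBayes with trend and Benjamini-Hochberg adjustment. Genes at an adjusted p under 0.05 and a 2-fold change were called, the thresholds of the study's own methods. The members and gene lists were chosen with earlier results of these data known.

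All members were named. Of the other pathway lists every called gene and every licensing or firing gene not called or not tested was named, with values for at most the 3 largest changes in each direction unless a further value was needed. Marker lists were read by their sums, and the 5 nearest profiles needed a mean of 5 FPKM or more. Promoters were from RefSeq and 3'UTRs from GENCODE vM21, read with python 3.11.15 and pandas 2.3.3. Alternatives were other pseudocounts, filters, scalings, variance settings, the replicate number as a block, no fold threshold and leaving out each library.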

Additional observations from a re-analysis of the deposited data

How the results depend on the processing

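All 10 members stayed lower in R111A cells under every alternative that tested them. Their median log2 fold change (-2.12) was -2.29 with a pseudocount of 0.1 FPKM, -1.72 with 5 FPKM, -2.22 with a filter at 5 FPKM, -2.41 after rescaling to TPM, -2.05 with median-of-ratios factors, -2.05 with quantile normalization and -2.18 to -2.05 when each library was left out. The pseudocount of 5 FPKM gave 402 genes lower, 386 higher and 7 pathway genes lower, and 7 members called, because Mcm10 (-0.91), Cdc6 (-0.56) and Cdt1 (-1.0) missed 2-fold. The filter at 5 FPKM gave 521 genes higher and 8 members called, since Mcm10 and Cdc6 were not tested. TPM gave 1749 genes and 19 pathway genes lower. Without the fold threshold, 3152 genes and 24 pathway genes were lower and 2088 genes higher. Without R111A replicate 2, 9 members were called. The difference in the Cdt1 to Gmnn ratio ran from 0.44 to 1.43 over the libraries left out. A group left with 1 library is assumed to vary like the other group.

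The replicate numbers are shared by the groups without a stated link, and their deviations correlated at r = 0.111 across 9831 genes. A replicate block gave 10 members, 821 genes lower and 841 higher, and changed no call among the members. With 2 libraries in each group and no counts, the precision of the low genes Mcm10 and Cdc6 cannot be given by depth.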
